A study of Mus musculus with 23 samples.

Results

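The comparison is between gastrocnemius, a calf muscle of the hind limb, from HH mice and from WT mice. It uses the 3 HH and the 4 WT muscle libraries of a series of 23, chosen by tissue and genotype as the labels give them. HH mice carry a pair of hypomorphic alleles of Bub1b (BubR1H/H), which lower the amount of the protein, and WT mice are wild type at that gene. Both groups were 8 to 10 months old, of a mixed 129Sve/C57BL/6 background, and the whole tissue was extracted, so RNA of every cell type in the muscle was pooled in a library. The series also holds muscle of a second mutant, HL1002P (4 libraries), which pairs an H allele with a missense allele, and fat of the 3 genotypes. The labels give neither the sex of the mice nor which libraries share a litter. HL1002P muscle is used in the comparison of the 2 mutants at the end and in an alternative fit of all 11 muscle libraries.

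Bub1b encodes BubR1, a kinase-like protein of the spindle assembly checkpoint, which holds back chromosome separation until every kinetochore is attached to the spindle. Too little BubR1 causes mosaic variegated aneuploidy in people, and mice with little of it age early, with muscle wasting among the signs. Skeletal muscle fibres no longer divide, so most RNA in gastrocnemius comes from cells in which the checkpoint is not in use.

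Total counts were 40.6 to 51.3 M in the HH libraries and 39.7 to 53.9 M in the WT libraries, and 16121 to 16793 genes had a count in a library. The summed level of 10 skeletal muscle fibre markers, such as Acta1, Ckm and Ttn, was 159409 to 206882 CPM in HH and 172625 to 234717 CPM in WT, as normalised read counts (CPM, counts scaled to library sizes adjusted by TMM, a normalisation between libraries). These ranges overlap, and all 10 markers were present in every library. HH replicates 1 and 2 and WT replicates 1 and 2 carried transcripts of the Y chromosome, while HH replicate 3 and WT replicates 3 and 4 carried Xist, the RNA of the inactive X chromosome. The first principal component of all genes, with 33.3% of the variance, put the 3 HH libraries on the other side of the 4 WT libraries, and the second, with 23.1%, split the libraries by these sex-linked transcripts.

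Of 14235 genes tested, 85 (0.597%) differed between HH and WT muscle at a Benjamini-Hochberg adjusted p under 0.05 by edgeR, 57 (0.4%) higher and 28 (0.197%) lower in HH. The smallest change among them was 0.66 on the log2 scale, and for all 85 every HH library lay on one side of every WT library. Over all genes tested that held for 1032 (7.25%) in the higher direction and 963 (6.77%) in the lower. Genes called include a securin, a ubiquitin ligase and a fatty acid carrier that fell, and a sarcomere protein, a foetal acetylcholine receptor subunit and a cytochrome P450 that rose. HH replicate 1 held the highest HH value of 32 of the 57 genes that rose, replicate 2 of 13 and replicate 3 of 12. The number of calls moved with single libraries: it was 131 without HH replicate 2, 32 without HH replicate 3 and 19 without HH replicate 1, and 9 to 16 when any 1 WT library was left out. The larger number of rises did not hold in all of these fits: 5 genes were higher and 11 lower without WT replicate 1, 4 and 5 without WT replicate 2, and 7 and 7 without WT replicate 3. Calls kept in every fit with 1 library left out, 7 of 7, were those of Pttg1, Pdzd3, Park2, Chrng, Igfn1 and Cyp2e1. Of the 85, 8 to 12 were still called when any 1 WT library was left out.

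**Figure D1:**
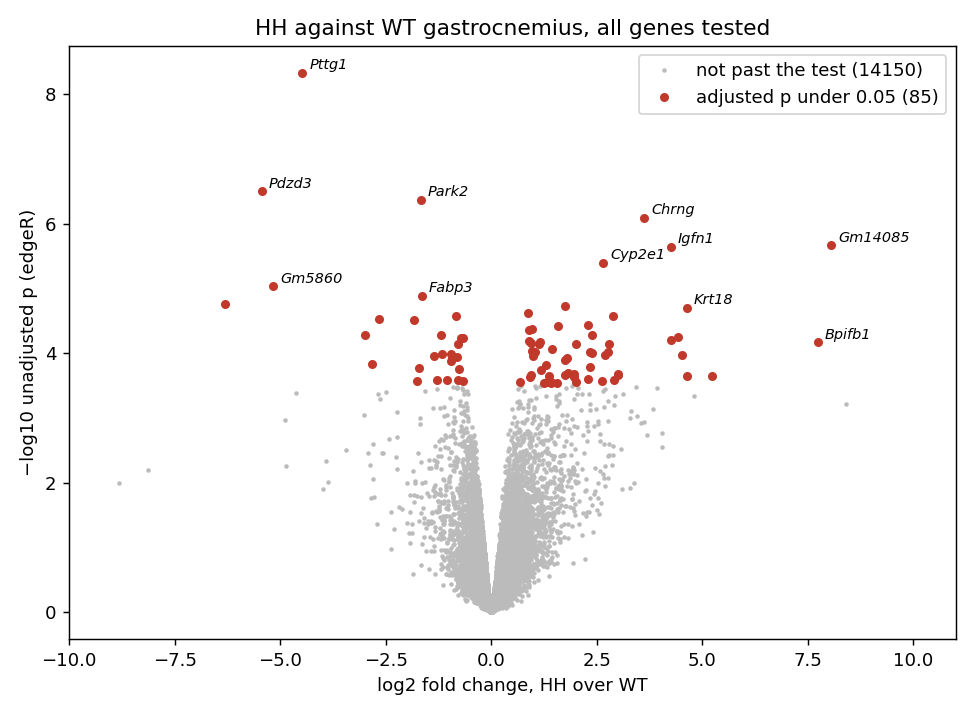
Log2 fold change of HH over WT (horizontal axis) against −log10 of the unadjusted edgeR p (vertical axis) for the 14235 genes tested, 1 point each, with the 85 genes at an adjusted p under 0.05 in red. Pttg1 has the smallest p, and 57 of the red points lie to the right and 28 to the left.

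The gene with the smallest p was Pttg1, which encodes securin, the inhibitor that keeps separase from cutting cohesin until the checkpoint is satisfied. Pttg1 (GRCm38 chromosome 11, 43420244 to 43427463) had 1.20, 1.36 and 1.82 CPM in the HH libraries, against 29.3, 27.6, 32.7 and 40.6 CPM in the WT libraries. All 3 HH libraries were near the bottom of the scale and the WT libraries lay far above them, with a log2 fold change of −4.48 ± 0.21 (SE, adjusted p = 6.73e-05 by edgeR). This value was −4.48 ± 0.19 in the Y-linked class of libraries and −4.34 in the Xist class, which holds 1 HH library. How reads shared with near copies of Pttg1 were counted is not given in the sources used here, so its level is uncertain. Of the other 14 securin, separase and cohesin genes tested, 0 passed the test, and the median of the 15 was −0.068 on the log2 scale. Smc3, a cohesin ring subunit, was lower in every HH library than in every WT library, at 17.51 to 20.6 CPM in HH and 22.8 to 29.7 CPM in WT (adjusted p = 0.21, edgeR).

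Park2, which encodes the ubiquitin ligase parkin that marks damaged mitochondria for removal, fell in HH muscle. Park2 (chromosome 17, 10840359 to 12063370) had 7.81, 8.08 and 6.15 CPM in the HH libraries, against 25.2, 23.3, 23.4 and 21.6 CPM in the WT libraries. The libraries of each genotype lay close together, and the log2 fold change of −1.67 ± 0.13 (SE, adjusted p = 0.00203 by edgeR) stayed within −1.74 to −1.56 with 1 library left out. Fabp3, the fatty acid binding protein that carries lipid through the cytosol of heart and oxidative muscle, had 289.9, 221 and 311 CPM in the HH libraries, against 646, 1062, 873 and 847 CPM in the WT libraries. It fell in HH muscle with a log2 fold change of −1.65 ± 0.20 (SE, adjusted p = 0.0207 by edgeR), and the call was kept in 4 of 7 fits; it was lost without WT replicate 3, WT replicate 4 or HH replicate 1, with values of −1.76 to −1.51 over the 7 fits. Pdzd3, a PDZ domain scaffold protein known from epithelia, was nearly absent from HH muscle at 0.0469, 0.0399 and 0.0217 CPM in the HH libraries, against 1.92, 1.82, 1.41 and 1.55 CPM in the WT libraries. The call of Pdzd3 (adjusted p = 0.00203, edgeR) rests on 5 counts over the HH libraries.

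Among the 12 largest falls, Flywch2 had 0.262 ± 0.0583 CPM in HH and 1.65 ± 0.402 CPM in WT (SD, n = 3 and 4), and Lypd6, a GPI-anchored modulator of nicotinic receptors and Wnt signalling, had 0.872 ± 0.128 CPM in HH and 3.09 ± 0.474 CPM in WT. Each of these calls held in 2 of 7 leave-one-out fits. Scn4b, a beta subunit of voltage-gated sodium channels, was an abundant gene in this set, with 189.6, 328 and 273 CPM in HH against 529, 576, 567 and 495 CPM in WT. It fell by 1.04 ± 0.18 (SE) on the log2 scale, with HH replicate 1 the lowest, and the call was kept in 1 of 7 fits. Rasd2, a small GTPase, fell by 1.19 ± 0.17, and Cyp39a1, an oxysterol hydroxylase of bile acid synthesis, by 1.35 ± 0.21. The calls of Rasd2 and Cyp39a1 were each kept in 1 of 7 fits. The centrosomal protein gene Lrrcc1 (1.64 to 2.51 CPM in HH and 3.92 to 5.87 CPM in WT), Ttc38 (4.34 to 4.72 CPM in HH and 7.72 to 12.3 CPM in WT) and the vomeronasal receptor gene Vmn1r58 (0.469 to 0.650 CPM in HH and 1.55 to 2.35 CPM in WT) also fell, and none of these 3 calls was kept when any 1 library was left out. Further falls were small in size. Ephx2, the soluble epoxide hydrolase, had 28.6 ± 4.30 CPM in HH and 55.03 ± 7.53 CPM in WT, Dusp8, a MAP kinase phosphatase, had 30.51 ± 4.32 CPM in HH and 51.7 ± 3.71 CPM in WT, and Pick1, a PDZ domain protein, had 45.98 ± 3.24 CPM in HH and 72.8 ± 2.03 CPM in WT. Nme6 and Gadd45gip1, both linked to mitochondria, had log2 fold changes of −0.82 ± 0.13 and −0.92 ± 0.14. The scaffold protein gene Mpdz, at −0.66 ± 0.11, and the X-linked Magix, at −0.95 ± 0.15, fell too. The calls of Ephx2, Dusp8, Pick1, Nme6, Gadd45gip1 and Magix were each kept in 1 of 7 leave-one-out fits, and that of Mpdz in 0. The predicted gene Gm8801 had 2 counts over the HH libraries and 248 over the WT libraries, a ratio of 0.0106 (95% interval 0.00128 to 0.0388, for counting error only). Both HH counts were in HH replicate 2, and the fitted log2 fold change was −6.31, or −8.93 without that library.

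Igfn1, an immunoglobulin and fibronectin domain protein of the sarcomere Z-disc, rose in HH muscle. Igfn1 (chromosome 1, 135953205 to 136040925) had 294, 131 and 269.9 CPM in the HH libraries, against 6.38, 18.9, 8.77 and 14.3 CPM in the WT libraries. HH replicate 2 was the lowest of the HH libraries and still lay far above WT replicate 2, the highest of its group, with a log2 fold change of 4.26 ± 0.41 (SE, adjusted p = 0.00539 by edgeR). Cyp2e1, the ethanol- and acetone-oxidising cytochrome P450, had 48.54, 42.52 and 64.3 CPM in the HH libraries, against 5.80, 11.6, 9.81 and 5.61 CPM in the WT libraries. The HH libraries lay apart from the WT libraries, with a log2 fold change of 2.66 ± 0.27 (SE, adjusted p = 0.00828 by edgeR). Without any 1 library the values ranged over 4.04 to 4.56 for Igfn1 and 2.46 to 2.87 for Cyp2e1.

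**Figure D2:**
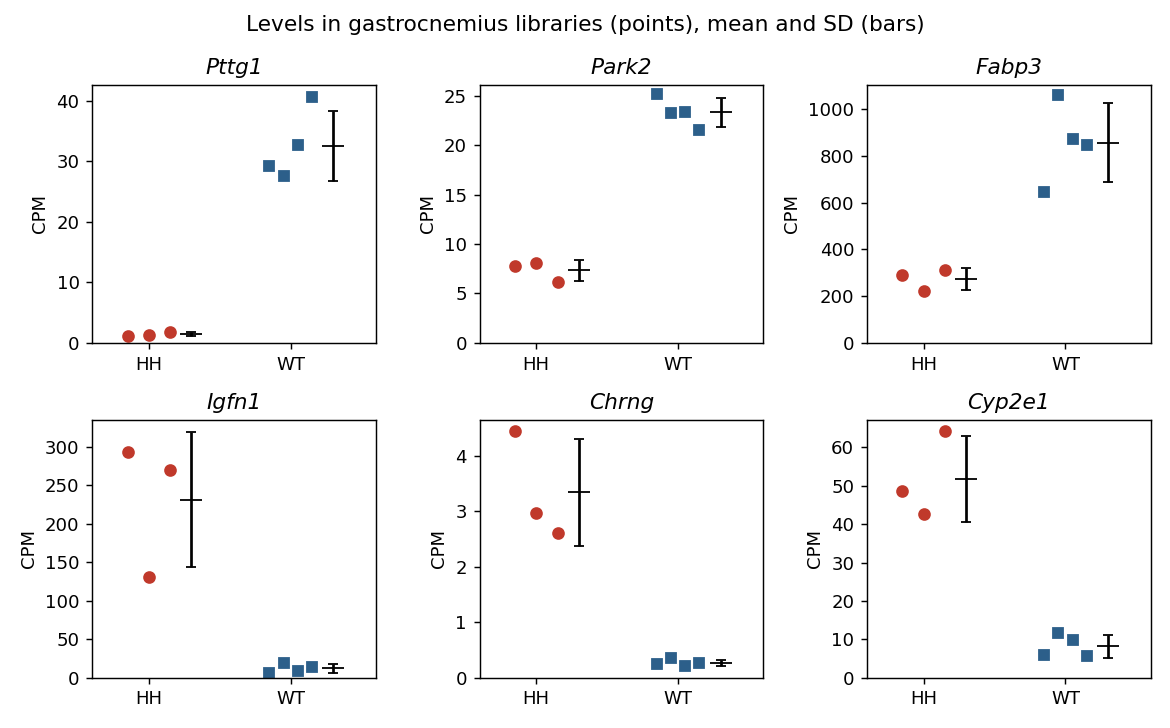
Normalised read counts (CPM, vertical axes from 0) of 6 genes in the 3 HH libraries (red circles, left) and the 4 WT libraries (blue squares, right), with the group mean and SD as bars. HH and WT libraries do not overlap in any panel; Pttg1, Park2 and Fabp3 are lower and Igfn1, Chrng and Cyp2e1 higher in HH.

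Several of the largest rises were carried mainly by HH replicate 1. Krt18, a keratin of simple epithelia, had 33.6, 7.56 and 7.47 CPM in the HH libraries, against 0.914, 0.561, 0.470 and 0.650 CPM in the WT libraries. HH replicate 1 was far above the other two, and the log2 fold change of 4.63 ± 0.58 (SE, adjusted p = 0.0239 by edgeR) was 3.52 without it. Ces2c, a carboxylesterase, had 5.98, 2.69 and 1.54 CPM in HH against 0.0446, 0.298, 0.104 and 0.232 CPM in WT (log2 fold change 4.26 ± 0.62, and 3.58 without HH replicate 1). Cpne2, a calcium-dependent membrane-binding copine, had 133, 39.4 and 38.2 CPM in HH against 8.99, 12.8, 8.51 and 10.9 CPM in WT and a log2 fold change of 2.77 ± 0.42, or 1.90 without HH replicate 1. Cilp, a matrix protein of cartilage and tendon, had 227, 74.6 and 94.4 CPM in HH against 23.01, 33.1, 18.01 and 26.7 CPM in WT. Its log2 fold change was 2.39 ± 0.37, or 1.74 without HH replicate 1. In these 4 genes every HH library was above every WT library, and the calls were kept in 3, 2, 3 and 2 of the 7 fits with 1 library left out. Hsf2bp, a meiotic recombination protein that binds a heat shock factor, and Katnal2, a katanin-like microtubule-severing protein, complete the 12 largest rises with Gdf5, Chrng, Ankrd1 and Runx1, described with the denervation genes. Hsf2bp had 2.08 ± 1.14 CPM in HH and 0.299 ± 0.0638 CPM in WT, and Katnal2 had 2.52 ± 0.690 CPM in HH and 0.474 ± 0.156 CPM in WT (SD, n = 3 and 4). The calls of Hsf2bp and Katnal2 were each kept in 2 of the 7 fits.

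Other genes that rose are of several kinds. Of secreted or matrix proteins, Timp1, an inhibitor of metalloproteinases, had 3.07 ± 0.903 CPM in HH and 0.880 ± 0.153 CPM in WT, Scube1 had 3.05 ± 0.470 CPM in HH and 0.855 ± 0.330 CPM in WT, and the collagen gene Col28a1 had 3.41 ± 0.320 CPM in HH and 0.874 ± 0.391 CPM in WT (SD, n = 3 and 4). Mustn1, a small nuclear protein of muscle and skeleton, had 209, 261 and 147 CPM in HH against 67.3, 54.6, 63.9 and 89.52 CPM in WT, and Dupd1, a dual-specificity phosphatase of muscle, had 125, 81.4 and 58.7 CPM in HH against 26.3, 27.9, 24.8 and 26.6 CPM in WT. Tubb6, a beta-tubulin, rose to 127, 64.2 and 46.00 CPM in HH against 16.7, 21.9, 20.1 and 20.1 CPM in WT. In all 3 the HH libraries spread more widely than the WT libraries and lay wholly above them. Trp63, the p53 relative, rose by 0.99 ± 0.15 on the log2 scale, Stra6, a retinol receptor, by 1.96 ± 0.33, and Peg3, an imprinted zinc finger gene, by 2.003 ± 0.35. Xdh, the xanthine oxidoreductase, had 43.97 to 68.04 CPM in HH and 24.2 to 30.9 CPM in WT, Abcg2, an efflux transporter, had 31.6 to 36.2 CPM in HH and 15.9 to 19.8 CPM in WT, and Fmo2, a flavin monooxygenase, had 28.7 to 35.97 CPM in HH and 10.2 to 16.2 CPM in WT. Prodh, the first enzyme of proline breakdown, and Lpin3, a phosphatidate phosphatase, rose by 0.93 ± 0.16 and 1.17 ± 0.19 on the log2 scale. Lyz1, Cxcl13, Mmp8, Trpm2 and Serpinb1a, genes known from immune cells, were also called; Lyz1 is described with the macrophage markers. Mmp8, a neutrophil collagenase, had 0.618 to 0.680 CPM in HH and 0 to 0.0522 CPM in WT, and Cxcl13, a chemokine that draws B cells, had 1.08 to 1.39 CPM in HH and 0.134 to 0.368 CPM in WT. The calls of Col28a1, Stra6, Xdh, Lpin3, Cxcl13, Trpm2 and Serpinb1a were kept in 0 of 7 leave-one-out fits. Those of Timp1, Scube1, Trp63, Peg3, Prodh and Mmp8 were each kept in 1 of 7. Abcg2 and Fmo2 kept theirs in 2 of 7, and Mustn1, Dupd1 and Tubb6 in 3 of 7. Genes with a few WT counts also rose. The secreted protein gene Bpifb1 had 231 counts over the HH libraries and 1 over the WT libraries (ratio 304.8, 95% interval 54.2 to 12091), and the tyrosine hydroxylase gene Th had 73 and 2 (ratio 48.2, 12.9 to 405). These intervals cover counting error only, and Bpifb1 had 3.92, 0.818 and 0.498 CPM in HH against 0.0223, 0, 0 and 0 CPM in WT, so that HH replicate 1 held most of its counts. The fitted log2 fold change of Bpifb1 was 7.73, against 6.34 without HH replicate 1 and 9.33 without WT replicate 1. Its call was kept in 2 of 7 leave-one-out fits. For Th both WT counts were in WT replicate 3; its fitted value was 5.23, or 7.62 without that library, and the call held in 0 of 7 leave-one-out fits.

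A muscle fibre that loses its nerve switches on a set of genes that innervation keeps off. Foetal acetylcholine receptor subunits spread over the fibre, and myogenin, Runx1 and cell cycle inhibitors rise. Of 22 such genes tested, 4 rose (Chrng, Runx1, Gdf5 and Ankrd1; 0.4% of all genes rose), 0 fell and 18 did not pass. Their median log2 fold change was 1.14, beside 0.0095 over all genes tested. Every HH library lay above every WT library for 12 of the 22, beside 7.25% of all genes, and below for 1. The median over the 22 of the log2 ratio to the WT mean was 1.77, 0.65 and 0.88 in the HH libraries, against −0.069, −0.0099, 0.0055 and −0.0047 in the WT libraries. HH replicate 1 stood highest and the 4 WT libraries lay within a narrow range. Without HH replicate 1 the median log2 fold change was 0.75, and it was 1.43 in the Y-linked class and 0.81 in the Xist class. At an unadjusted p under 0.05, 15 of the 22 were higher in HH (8.59% of all genes tested) and 2 lower. The list and its members were chosen with earlier results of these data known. These counts and medians therefore describe the listed genes and are not a test of the list.

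**Figure D3:**
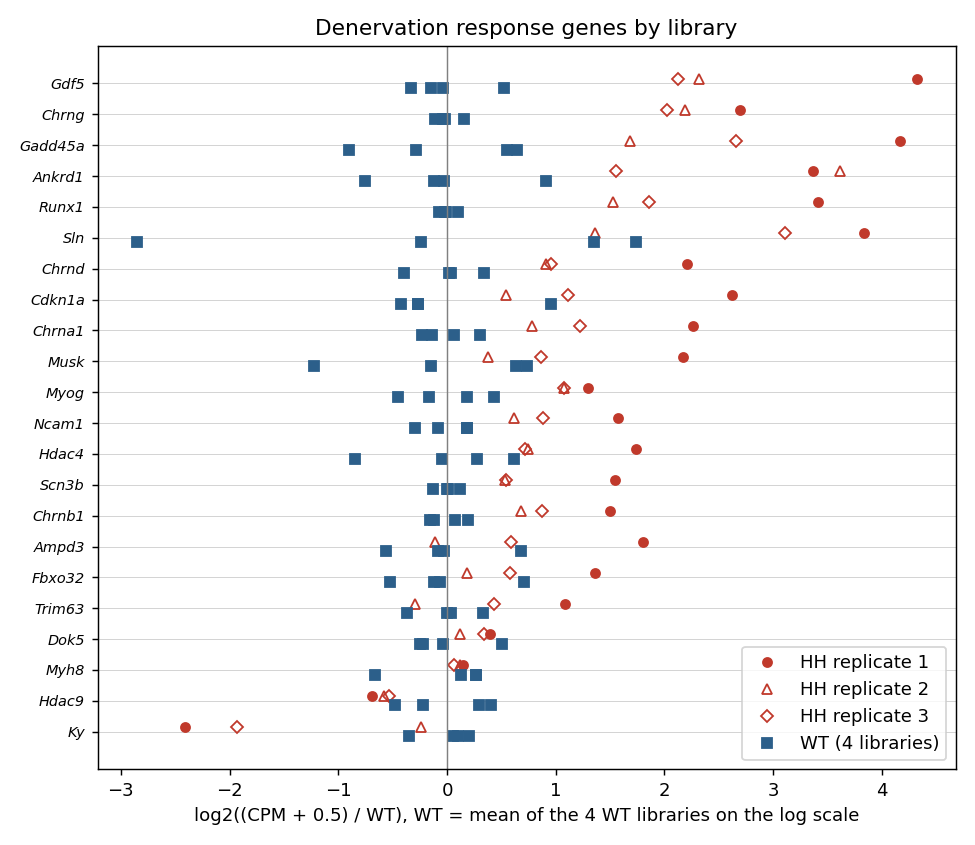
Log2 ratio of (CPM + 0.5) to the mean of the 4 WT libraries (horizontal axis) for each of 22 denervation response genes (rows), in the 3 HH libraries (red, one symbol per replicate) and the 4 WT libraries (blue squares). For 12 genes all red symbols lie to the right of all blue ones, and HH replicate 1 is the rightmost HH library in most rows.

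The acetylcholine receptor of adult endplates holds alpha, beta, delta and epsilon subunits, and the gamma subunit, encoded by Chrng, replaces epsilon before birth and after denervation. Chrng (chromosome 1, 87205811 to 87211835) had 4.43, 2.97 and 2.60 CPM in the HH libraries, against 0.245, 0.350, 0.209 and 0.255 CPM in the WT libraries. The lowest HH library was several times above the highest WT library, and the log2 fold change of 3.62 ± 0.31 (SE, adjusted p = 0.0029 by edgeR) stayed within 3.36 to 3.80 with 1 library left out. It was 3.61 ± 0.42 in the Y-linked class and 3.46 in the Xist class. The level stayed low in both groups, with 458 counts over the 3 HH libraries and 50 over the 4 WT libraries. Chrne, the adult epsilon subunit, had 13.1, 21.9 and 20.7 CPM in the HH libraries, against 20.52, 14.4, 13.49 and 13.9 CPM in the WT libraries. The groups overlapped, and its log2 fold change was 0.26 ± 0.21 (edgeR adjusted p = 0.594). Of the subunits shared by both forms, Chrna1 had 127, 45.1 and 61.4 CPM in the HH libraries, against 22.1, 32.1, 27.3 and 23.6 CPM in the WT libraries. Chrnb1 had 62.8 to 111 CPM in HH and 35.1 to 44.7 CPM in WT, and Chrnd had 6.86 to 17.6 CPM in HH and 2.48 to 4.44 CPM in WT. For all 3 the HH libraries were above the WT libraries, HH replicate 1 was the highest, and the adjusted p was 0.0648 for Chrna1, 0.0501 for Chrnb1 and 0.082 for Chrnd (edgeR).

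The promoters of the gamma and alpha subunit genes are shown because they are textbook targets of myogenic bHLH factors such as myogenin, which bind the E-box CAGCTG. These are the 250 bases before each gene's start in RefSeq's promoter table of GRCm38.p6, with each CAGCTG in capitals. For Chrng they lie at chr1:87205561-87205810 on the + strand, and for Chrna1 at chr2:73580339-73580588 on the − strand.
Chrng: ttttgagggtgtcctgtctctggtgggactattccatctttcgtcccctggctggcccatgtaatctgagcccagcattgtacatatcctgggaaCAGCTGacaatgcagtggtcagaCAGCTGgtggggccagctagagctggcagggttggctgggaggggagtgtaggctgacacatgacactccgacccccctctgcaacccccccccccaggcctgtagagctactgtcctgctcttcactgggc
Chrna1: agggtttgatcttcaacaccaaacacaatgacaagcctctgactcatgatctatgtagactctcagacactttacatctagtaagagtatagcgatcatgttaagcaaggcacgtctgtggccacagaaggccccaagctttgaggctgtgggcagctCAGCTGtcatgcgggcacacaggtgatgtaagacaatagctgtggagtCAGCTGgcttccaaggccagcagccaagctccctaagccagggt
Each sequence holds 2 copies, which begin 155 and 132 bases before the start of Chrng and 92 and 44 bases before that of Chrna1. CAGCTG is its own reverse complement, so a match counts for both strands. In windows of 300 bases, which add 50 bases after the start, 7 of the 21 windows of denervation genes (33.33%) held the motif, beside 16.3% of all 32851 windows and 4 of 21 windows of fatty acid oxidation genes (19.05%). The 7 belong to 6 of 16 genes, Cdkn1a, Chrna1, Chrng, Hdac9, Musk and Trim63; 1 of the 16, Il1rapl1, was too low in these libraries to be tested. A match describes letters and says nothing of binding in these muscles.

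Runx1, a transcription factor that muscle induces after denervation, had 34.96, 9.09 and 11.54 CPM in the HH libraries, against 2.68, 3.07, 2.79 and 2.81 CPM in the WT libraries. HH replicate 1 was far above the other HH libraries, and the log2 fold change of 2.70 ± 0.42 (SE, adjusted p = 0.0329 by edgeR) was 1.85 without it. Gdf5, a BMP family ligand, had 15.51, 3.49 and 3.01 CPM in the HH libraries, against 0.223, 0.280, 0.653 and 0.139 CPM in the WT libraries. Its log2 fold change was 4.52 ± 0.70 (edgeR adjusted p = 0.0329), or 3.33 without HH replicate 1. Ankrd1, an ankyrin repeat protein that binds titin and responds to stretch and denervation, had 133, 157 and 37.4 CPM in the HH libraries, against 12.2, 7.15, 11.4 and 23.8 CPM in the WT libraries. Here HH replicate 3 was the lowest of the HH libraries, and the log2 fold change was 3.01 ± 0.51 (edgeR adjusted p = 0.048). The calls were kept in 3, 2 and 1 of the 7 fits, and the Ankrd1 value was 1.08 in the Xist class.

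The other denervation genes did not pass. Myog, the myogenic transcription factor myogenin, had 18.98, 16.3 and 16.3 CPM in the HH libraries, against 6.60, 5.31, 8.56 and 10.2 CPM in the WT libraries. The groups did not overlap and the 3 HH values lay close together, with a log2 fold change of 1.17 ± 0.21 (SE, adjusted p = 0.0501 by edgeR). Gadd45a, a growth arrest gene, had 214, 38.01 and 75.1 CPM in HH against 9.32, 5.92, 18.2 and 17.1 CPM in WT (adjusted p = 0.0527, edgeR). HH replicate 1 stood far above the rest, and the groups did not overlap. Ncam1, the neural cell adhesion molecule that spreads over denervated fibres, had 13.96 to 27.47 CPM in HH and 7.20 to 10.2 CPM in WT. Musk, the receptor kinase of the endplate, had 17.7 to 62.8 CPM in HH and 5.52 to 22.8 CPM in WT, and Cdkn1a, the cell cycle inhibitor p21, had 53.03 to 225 CPM in HH and 26.8 to 71.01 CPM in WT; both overlapped between groups. The ubiquitin ligase genes Fbxo32 (414 to 938 CPM in HH and 254 to 597 CPM in WT) and Trim63 overlapped as well, with log2 fold changes of 0.72 ± 0.33 and 0.49 ± 0.29. Hdac9 and Ky were at −0.69 ± 0.24 and −1.23 ± 0.46; Ky, a protein that supports the neuromuscular junction and the sarcomere, had 56.1, 255 and 78.4 CPM in HH against 346, 311, 321 and 235 CPM in WT. HH replicate 2 was far above the other HH libraries, and without it Ky was called lower, at −2.18 on the log2 scale; the values ran from −2.18 to −0.87 with 1 library left out. Of 19 neuromuscular junction genes tested, 0 passed, 5 lay wholly above WT in HH (7.25% of all genes did) and 1 below (6.77% of all genes), and the median was 0.26.

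Muscle stem cells rebuild damaged fibres, which pass through stages with embryonic and neonatal contractile proteins. Of 22 genes of developing or regenerating fibres tested, 1 rose (Chrng, beside 0.4% of all genes), 0 fell and 21 did not pass. The median log2 fold change was 0.27. In 7 the HH libraries lay wholly above WT (7.25% of all genes) and in 2 below (6.77%). Tmem8c, the myomaker protein that fuses myoblasts, had 1.08, 1.44 and 2.92 CPM in the HH libraries, against 0.0446, 0.105, 0.157 and 0.371 CPM in the WT libraries (log2 fold change 3.42 ± 0.61, edgeR adjusted p = 0.0501), and its fitted value ran from 2.89 to 4.14 with 1 library left out. Pax7, the marker of satellite cells, had 0.516, 1.06 and 0.476 CPM in the HH libraries, against 1.58, 2.86, 1.46 and 1.69 CPM in the WT libraries. Gm7325, which RefSeq names Mymx, encodes myomixer, the partner of myomaker in fusion, and rose in HH muscle. It had 0.258, 0.798 and 1.23 CPM in the HH libraries, against 0.0446, 0, 0.0522 and 0.0232 CPM in the WT libraries. The groups did not overlap, on low levels, and the log2 fold change was 4.65 ± 0.80 (adjusted p = 0.048, edgeR), with the call held in 0 of 7 leave-one-out fits. Tmem8c and Pax7 did not overlap between groups, Tmem8c being higher and Pax7 lower in HH, and neither passed (Pax7 log2 fold change −1.47 ± 0.39, edgeR adjusted p = 0.131). Myh3, embryonic myosin, had 54.4, 11.47 and 54.6 CPM in HH against 10.3, 8.90, 14.7 and 17.7 CPM in WT, and Actc1, the cardiac alpha-actin of immature fibres, had 108, 1076 and 860.5 CPM in HH against 65.7, 63.97, 154 and 143 CPM in WT. HH replicate 2 was low for Myh3 and HH replicate 1 was low for Actc1, so both overlapped WT (edgeR adjusted p = 0.154 and 0.108). Reads of related myosin genes may be shared among copies, so single myosin levels are uncertain.

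Fibre type is read from the myosins. Myh1, the IIx myosin, had 5409, 5976 and 4145 CPM in the HH libraries, against 3695, 2721, 2272 and 2495 CPM in the WT libraries. It was higher in every HH library, with a log2 fold change of 0.89 ± 0.21 (SE, adjusted p = 0.0992 by edgeR). Myh4, the IIb myosin of the fastest fibres, had 35127, 46120.3 and 34022 CPM in the HH libraries, against 61822, 40592, 51606 and 48408 CPM in the WT libraries, and the groups overlapped. Of 18 fast fibre genes 0 passed (median −0.30), and of 18 slow fibre genes 0 passed (median −0.43). The slow genes varied within both genotypes: their median log2 ratio to the WT mean was 0.29, −1.48 and 0.42 in the HH libraries, against −1.29, 0.27, 0.58 and 0.62 in the WT libraries. HH replicate 2 and WT replicate 1 were both far below the rest, and without HH replicate 2 the median log2 fold change was 0.039. Myl2, the slow regulatory light chain, had 709.6, 123 and 787 CPM in HH against 279, 989, 1469.9 and 1452 CPM in WT. Myoz3, a calsarcin of fast fibres, had 134 to 211 CPM in HH and 255 to 347 CPM in WT (adjusted p = 0.0754, edgeR).

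Of 29 sarcomere-associated genes tested, 2 rose (Igfn1 and Ankrd1, beside 0.4% of all genes), 0 fell and 27 did not pass. The median was 0.10. Ttn, the giant spring of the sarcomere, had 5463, 5963 and 5892 CPM in the HH libraries, against 7465, 6503, 7097 and 7005 CPM in the WT libraries. The groups did not overlap, though at −0.28 ± 0.14 on the log2 scale Ttn missed the threshold (adjusted p = 0.386, edgeR). Of 24 genes of calcium release and reuptake 1 rose (0.4% of all genes did) and 0 fell, with a median of −0.16. The gene that rose was Ryr3, a ryanodine receptor of immature muscle and diaphragm. Ryr3 had 5.16, 3.61 and 4.29 CPM in the HH libraries, against 1.67, 1.58, 0.887 and 0.974 CPM in the WT libraries, and its call was kept in 1 of 7 fits. Sln, sarcolipin, which uncouples the calcium pump, ranged over 48.4 to 272 CPM in HH and 2.14 to 63.4 CPM in WT and did not pass (adjusted p = 0.261, edgeR).

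Mitochondria burn fatty acids in a spiral of dehydrogenation, hydration, a second dehydrogenation and thiolysis, after the carnitine shuttle brings them in. Of 26 genes of this pathway tested, 1 fell (Acaa2; 0.197% of all genes fell), 0 rose and 25 did not pass. In 17 of the 26 every HH library was below every WT library, beside 6.77% of all genes, and in 0 above. At an unadjusted p under 0.05, 17 were lower in HH (7.01% of all genes tested) and 0 higher. The median log2 fold change was −0.44, beside 0.0095 over all genes, and it stayed between −0.53 and −0.35 over all the alternatives run. The median log2 ratio to the WT mean was −0.46, −0.44 and −0.42 in the HH libraries, against −0.18, 0.18, −0.031 and −0.027 in the WT libraries. The 3 HH libraries lay close together and below each WT library, whichever sex-linked transcripts they carried. This list was also chosen with earlier results of these data known, so its counts and median are not a test of the pathway.

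**Figure D4:**
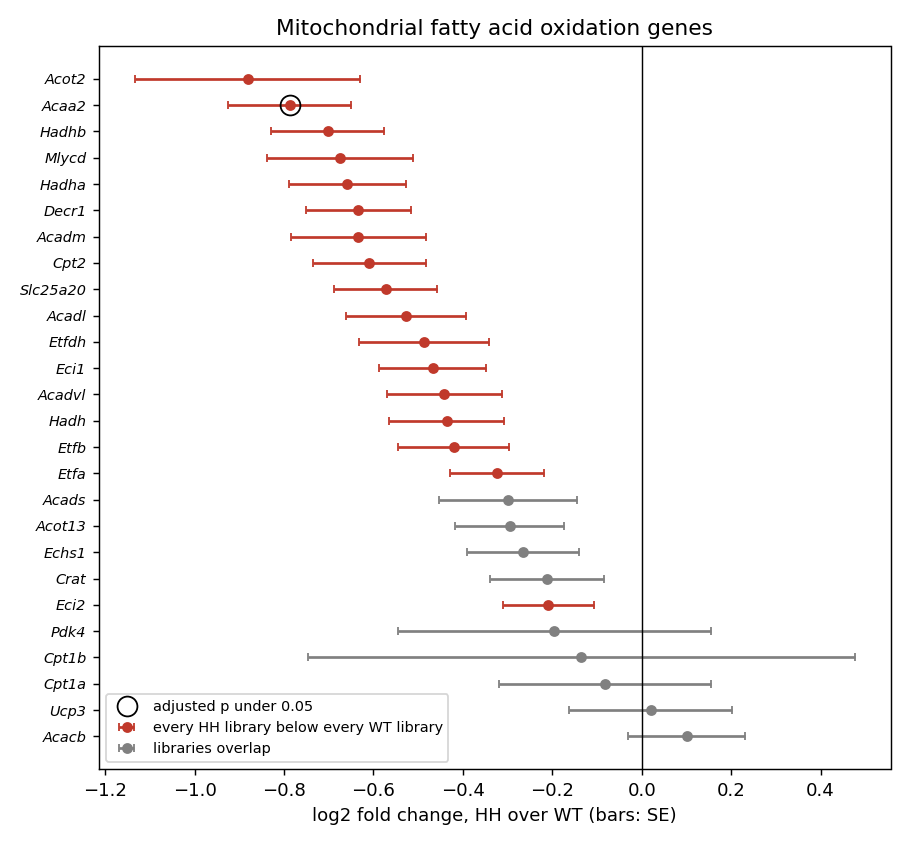
Log2 fold change of HH over WT with its SE (horizontal axis) for the 26 mitochondrial fatty acid oxidation genes tested (rows). Red marks the 17 genes in which every HH library was below every WT library, grey the others, and the open circle the gene past the test, Acaa2.

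Of the carnitine shuttle, Cpt2, the inner membrane carnitine palmitoyltransferase, had 59.8, 78.1 and 66.1 CPM in the HH libraries, against 90.3, 114, 103 and 108 CPM in the WT libraries. The carrier gene Slc25a20 had a log2 fold change of −0.57 ± 0.12 (edgeR adjusted p = 0.0665), close to the −0.61 ± 0.13 of Cpt2. Both lay wholly below WT in HH. Cpt1b, the muscle form of the outer enzyme, was listed at 0.199 to 0.235 CPM in HH and 0.0783 to 0.446 CPM in WT; this gene overlaps others, and how reads in overlaps were counted is not given in the sources used here, so its level is uncertain. Cpt1a was at −0.082 ± 0.24 with overlapping groups. Of the chain-length specific acyl-CoA dehydrogenases, Acadvl, the very long chain enzyme, had 372 to 419.9 CPM in HH and 469 to 623 CPM in WT, and Acadm, the medium chain enzyme, had 268, 355 and 323 CPM in the HH libraries, against 410.3, 574, 469 and 503 CPM in the WT libraries. Acadl, the long chain enzyme, was at −0.53 ± 0.13 on the log2 scale and Acads, the short chain enzyme, at −0.30 ± 0.15, the last with overlapping groups.

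Hadha and Hadhb form the trifunctional protein of the inner membrane, which carries out the last 3 steps on long chains. Hadha had 329.9, 330.3 and 328 CPM in the HH libraries, against 442, 613, 527 and 497 CPM in the WT libraries. Hadhb had 396, 403 and 448 CPM in the HH libraries, against 585, 757, 708 and 656 CPM in the WT libraries. The HH values of Hadha were nearly the same in all 3 libraries, and neither gene passed: the log2 fold changes were −0.66 ± 0.13 (edgeR adjusted p = 0.0648) and −0.70 ± 0.13 (edgeR adjusted p = 0.0501). Acaa2, the mitochondrial thiolase for medium chains (chromosome 18, 74779212 to 74806207), had 135, 149 and 157 CPM in the HH libraries, against 221, 311, 248 and 235 CPM in the WT libraries. It fell with a log2 fold change of −0.79 ± 0.14 (SE, adjusted p = 0.0482 by edgeR), and the call, at the edge of the threshold, held in 0 of 7 leave-one-out fits, with values of −0.85 to −0.67. Hadh, the dehydrogenase for shorter chains, was at −0.44 ± 0.13, and Echs1, the hydratase, at −0.26 ± 0.13 with overlapping groups. Decr1, which handles double bonds of unsaturated chains, had 98.00, 113 and 109.6 CPM in the HH libraries, against 153, 187, 175 and 148 CPM in the WT libraries. It did not pass (edgeR adjusted p = 0.0527), nor did the isomerase genes Eci1 (−0.47 ± 0.12) and Eci2 (−0.21 ± 0.10). The electron transfer proteins that take electrons from these enzymes were lower in every HH library: Etfa was at −0.32 ± 0.10, Etfb at −0.42 ± 0.12 and their oxidoreductase Etfdh at −0.49 ± 0.15. Acot2, a mitochondrial thioesterase, had 13.4, 8.97 and 12.3 CPM in HH against 14.4, 29.8, 17.4 and 23.2 CPM in WT, and Mlycd, which breaks down the inhibitor malonyl-CoA, had 97.6, 85.9 and 108 CPM in HH against 126, 161, 137 and 196 CPM in WT. The regulators at the edge of the pathway lay closer to 0: Pdk4 was at −0.20 ± 0.35, Ucp3 at 0.02 ± 0.18 and Acacb, which makes malonyl-CoA, at 0.10 ± 0.13, all with overlapping groups.

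Of 15 genes of fatty acid uptake and activation, 1 fell (Fabp3, beside 0.197% of all genes), 0 rose and 14 did not pass. The median was −0.13. Lpl, the lipase that frees fatty acids from lipoproteins, had 614, 472 and 648 CPM in HH against 522, 1193, 950.3 and 814 CPM in WT, overlapping (edgeR adjusted p = 0.311). Neighbouring pathways had medians nearer 0 and no member past the test. The median was −0.18 for 22 genes of the tricarboxylic acid cycle, −0.17 for 32 of oxidative phosphorylation, −0.18 for 25 of glycolysis and glycogen, and −0.22 for 20 regulators such as PGC-1 and the PPARs. Wholly below WT in HH were 6, 3, 0 and 4 of them in that order, beside 6.77% of all genes tested, a share that the 3 of 32 oxidative phosphorylation genes lay near. Idh2, the mitochondrial isocitrate dehydrogenase, had 339.9, 259 and 457 CPM in HH against 447, 891, 889 and 791 CPM in WT and overlapped at WT replicate 1 (edgeR adjusted p = 0.111). Sdhd, a complex II subunit, had 226 to 264 CPM in HH and 301 to 330.0 CPM in WT, and Perm1, a PGC-1 and ERR induced regulator of muscle, had 227 to 245 CPM in HH and 274 to 428 CPM in WT. The summed fibre markers given above ranged lower in HH than in WT with overlap, and their median log2 fold change was −0.27. In whole tissue fewer fibres and less RNA per fibre cannot be told apart, and the part of the fibre markers in these values was not tested.

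Bub1b itself had 0.328, 0.339 and 0.520 CPM in the HH libraries, against 0.959, 0.876, 0.731 and 0.766 CPM in the WT libraries. Every HH library was below every WT library, and the gene had 55 counts in HH and 154 in WT. At −1.07 ± 0.34 on the log2 scale it missed the threshold (adjusted p = 0.189, edgeR). Of 16 spindle checkpoint and kinetochore genes tested 0 passed (median 0.02), and of 17 genes of cell division and replication 0 passed (median 0.0032). Rrm2, the S phase subunit of ribonucleotide reductase, had 1.04 to 4.25 CPM in HH and 0.647 to 1.21 CPM in WT, and Tk1, a thymidine kinase, had 2.46 to 6.94 CPM in HH and 7.06 to 9.27 CPM in WT, neither past the test.

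Cdkn2a, the p16 and p19Arf gene, often used as a marker of senescence, had 0.469, 0.937 and 0.585 CPM in the HH libraries, against 0, 0.105, 0.104 and 0.0464 CPM in the WT libraries. The groups did not overlap, on 94 counts in HH and 12 in WT, and the log2 fold change of 3.31 ± 0.67 (SE, adjusted p = 0.0684 by edgeR) missed the threshold. Of 7 CDK inhibitors 0 passed (median −0.02). Of 28 targets of p53, the factor that answers DNA damage, 0 passed, 9 lay wholly above WT in HH (7.25% of all genes did), 0 lay below, and the median was 0.36. Eda2r, a TNF receptor family member, had 79.4, 29.4 and 49.2 CPM in the HH libraries, against 25.47, 19.03, 17.2 and 21.1 CPM in the WT libraries. Phlda3, an inhibitor of Akt, had 371 to 451 CPM in HH and 237 to 305 CPM in WT, Plk2, a stress-induced polo-like kinase, had 16.4 to 42.6 CPM in HH and 7.23 to 13.3 CPM in WT, and Psrc1, a spindle protein, had 0.328 to 0.818 CPM in HH and 0 to 0.0928 CPM in WT. None of these 4 overlapped between groups, and the smallest of their adjusted p was 0.0594 (edgeR). Of 23 secreted factors of senescent cells 1 rose (Timp1, beside 0.4% of all genes), 0 fell and 22 did not pass. The call of Timp1 was kept in 1 of 7 leave-one-out fits. In 4 of the 23 the HH libraries lay wholly above WT (7.25% of all genes did) and in 0 below. The median was 0.38, with library values of 0.34, 0.35 and 0.32 in the HH libraries, against −0.20, 0.18, 0.083 and −0.057 in the WT libraries. Cxcl10, an interferon-induced chemokine, had 1.13, 2.37 and 3.05 CPM in HH against 0.178, 0.631, 0.287 and 0.255 CPM in WT (log2 fold change 2.66 ± 0.49, edgeR adjusted p = 0.052). Macrophage markers, whose summed level is given below, lay higher in HH as well; their part in these values was not tested.

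Of 24 atrophy ligases and FoxO targets 0 passed, 5 lay wholly above WT in HH (7.25% of all genes did), and the median was 0.25. Foxo1, a transcription factor of the wasting programme, had 118, 23.4 and 53.9 CPM in the HH libraries, against 16.1, 18.99, 21.7 and 19.46 CPM in the WT libraries. Mt2, a metallothionein, had 147, 21.6 and 31.8 CPM in HH against 9.90, 9.79, 21.4 and 18.9 CPM in WT. In both HH replicate 1 was far above the rest and the groups did not overlap; neither passed (edgeR adjusted p = 0.104 and 0.151). Of 24 genes of insulin, IGF1 and myostatin signalling 0 passed (median 0.14), Akt1 having 91.6 to 132 CPM in HH and 64.7 to 79.1 CPM in WT. Of 24 genes of aldehyde detoxification and NRF2 targets, 1 rose (Cyp2e1, beside 0.4% of all genes) and 1 fell (Glo1, beside 0.197%). The median was 0.094. Glo1, the glyoxalase that removes methylglyoxal, had 109, 130.2 and 112 CPM in the HH libraries, against 215, 190.4, 216 and 215 CPM in the WT libraries. The 2 groups were well apart and the log2 fold change was −0.83 ± 0.11 (edgeR adjusted p = 0.0255), with the call kept in 1 of 7 fits. Of 19 imprinted growth genes 1 rose (Peg3, beside 0.4% of all genes) and 0 fell, with a median of 0.18. Peg3 had 23.3, 7.68 and 16.1 CPM in HH against 3.17, 4.99, 4.65 and 2.83 CPM in WT. Its call was kept in 1 of 7 fits.

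The remaining processes had no gene past the test. The median was 0.082 for 25 proteasome subunits, −0.056 for 21 chaperones, 0.092 for 20 genes of the integrated stress response, −0.19 for 19 clock genes and −0.088 for 25 collagen and matrix genes. Immediate early genes (26 tested) had a median of 0.36, but HH replicate 3 stood at −0.16 on the log2 ratio to the WT mean and the other HH libraries at 0.70 and 0.67. Interferon-stimulated genes (22 tested) had a median of 0.53 and split the other way, with HH replicate 3 at 0.92, HH replicate 1 at −0.28 and HH replicate 2 at 0.18.

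Markers of other cell types in the muscle were read from the same libraries. Of 23 macrophage markers 1 rose (Lyz1, beside 0.4% of all genes), 0 fell and 22 did not pass. The call of Lyz1 held in 0 of 7 leave-one-out fits. In HH 7 markers lay wholly above WT (7.25% of all genes did) and 0 below, and the median of the markers was 0.64. Their summed level was 272 to 399 CPM in HH and 96.8 to 243 CPM in WT, without overlap, and none was at 0 in every library. Lyz1, a lysozyme, had 17.9, 17.51 and 26.3 CPM in the HH libraries, against 3.97, 6.18, 8.22 and 9.44 CPM in the WT libraries, and its near copy Lyz2 had 69.3, 71.6 and 99.2 CPM in the HH libraries, against 22.1, 39.7, 45.8 and 43.8 CPM in the WT libraries. Lyz1 and Lyz2 may share reads, so their separate levels are uncertain. Itgam, the CD11b integrin chain, had 4.69 to 6.39 CPM in HH and 1.52 to 3.31 CPM in WT (adjusted p = 0.0952, edgeR). Of 14 adipocyte markers 0 passed (median 0.70, summed level 438 to 1221 CPM in HH and 286 to 729.9 CPM in WT). Cfd, the fat cell protein adipsin, had 161, 168 and 319 CPM in HH against 16.1, 40.9, 123 and 66.02 CPM in WT, while Lep, the hormone leptin, had 7.30, 2.91 and 32.8 CPM in HH against 43.49, 103, 47.53 and 17.9 CPM in WT. HH replicate 3 held the highest adipocyte sum, and without it the median was 0.075.

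Tendon cells attach muscle to bone and make a distinct matrix. Of 12 tendon markers 1 fell (Fmod, beside 0.197% of all genes), 0 rose and 11 did not pass. In 2 the HH libraries lay wholly below WT (6.77% of all genes did) and in 0 above. The median was −0.99, and the summed level was 171 to 239 CPM in HH and 230.3 to 487 CPM in WT. The median log2 ratio to the WT mean was −1.02, −0.97 and −0.33 in the HH libraries, against 0.11, 0.47, −0.68 and 0.20 in the WT libraries. WT replicate 3 was low and HH replicate 3 the least low, so the groups overlapped, and the median was −1.66 in the Y-linked class and −0.16 in the Xist class. Fmod, fibromodulin, which organises collagen fibrils, had 31.3, 39.8 and 64.9 CPM in the HH libraries, against 163, 192, 90.4 and 165 CPM in the WT libraries. The 2 groups did not overlap, and its log2 fold change of −1.75 ± 0.31 (SE, adjusted p = 0.0482 by edgeR) was kept as a call in 2 of 7 fits. Chad, chondroadherin, had 1.45, 0.778 and 5.003 CPM in HH against 15.8, 24.9, 9.19 and 28.2 CPM in WT, and Kera, keratocan, had 0.0469, 0.798 and 0.563 CPM in HH against 7.09, 4.13, 0.679 and 1.07 CPM in WT. Scx, the tendon transcription factor, overlapped between groups, at 23.3, 6.64 and 11.54 CPM in HH against 7.94, 7.32, 6.84 and 9.16 CPM in WT. The amount of tendon or fat taken with the muscle is not given by the labels, and its part in these values was not tested. Endothelial (median 0.07), smooth muscle (median −0.04), Schwann cell (median 0.25), fibro-adipogenic progenitor (median 0.092) and lymphocyte markers (median 0.17, 5 tested) had no member past the test.

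**Figure D5:**
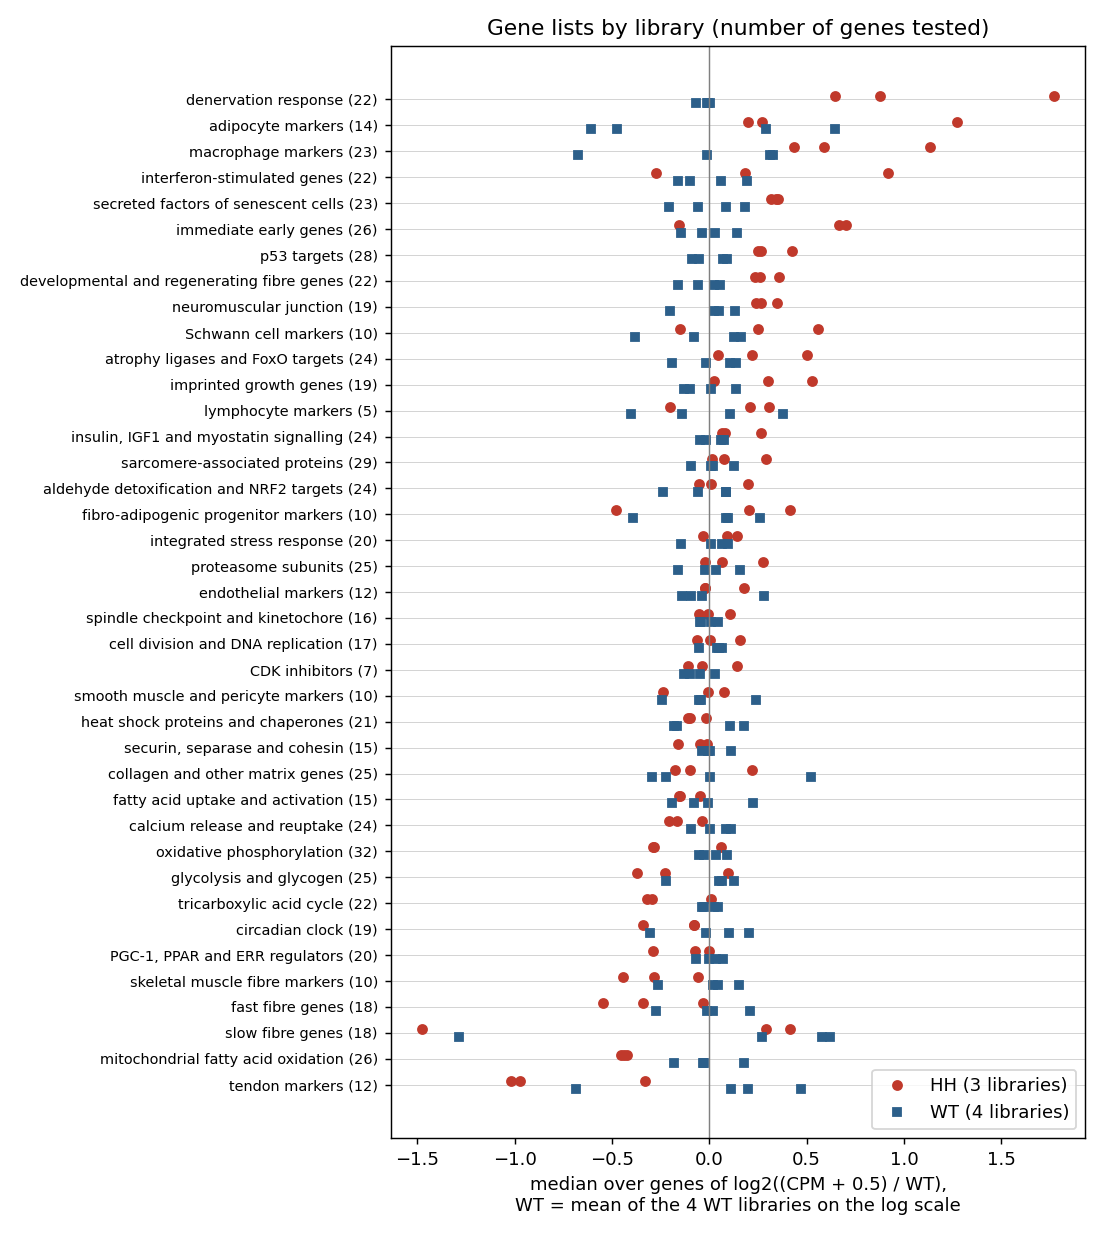
Median over the genes of each list (rows, with the number tested) of the log2 ratio of (CPM + 0.5) to the WT mean (horizontal axis), for each HH library (red circles) and WT library (blue squares). The HH libraries lie wholly to the right of the WT libraries for denervation response, developmental and regenerating fibre genes, neuromuscular junction, p53 targets, secreted factors of senescent cells and macrophage markers, and wholly to the left for fatty acid oxidation, while HH replicate 2 and WT replicate 1 both lie far to the left for slow fibre genes. Lists can share genes, so rows are not independent. The denervation list shares Chrng with the developing fibre list, Chrna1 and Chrnb1 with the neuromuscular junction list, and Gadd45a with the p53 targets.

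Of the 258 genes tested that start within 20 Mb of Bub1b on chromosome 2, 6 (2.33%) were called, against 79 of 13928 elsewhere (0.567%). They were Ryr3, Pla2g4e, Ccndbp1 and Gm14085 (RefSeq Slc28a2b), which rose, and Ndufaf1 and Adal, which fell. Pla2g4e, a cytosolic phospholipase, had 66.49, 99.4 and 70.4 CPM in HH against 37.9, 41.9, 30.7 and 32.48 CPM in WT, and Ndufaf1, an assembly factor of respiratory complex I, had 22.45, 23.2 and 22.05 CPM in HH against 36.9, 33.48, 38.7 and 38.9 CPM in WT. In both the HH libraries were wholly on one side of WT. The calls of Ryr3, Pla2g4e, Ndufaf1 and Adal were each kept in 1 of 7 leave-one-out fits. That of Ccndbp1 was kept in 2 and that of Gm14085 in 6. Over whole chromosomes the called share was 0.99% on chromosome 2. It was higher on chromosomes 17 (1.28%), 9 (1.23%) and 18 (1.03%). Linked sequence carried along with a targeted allele on a mixed background cannot be told apart from the allele itself in these libraries.

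HH and HL1002P muscle were compared in a fit of all 11 muscle libraries, where 3 of 14580 genes (0.0206%) differed: Pttg1, Pdzd3 and the predicted gene Gm5860. Pttg1 had 1.46 ± 0.323 CPM in HH and 30.3 ± 2.71 CPM in HL1002P (SD, n = 3 and 4). This is −4.37 on the log2 scale (adjusted p = 4.86e-07, edgeR). Pdzd3 had 0.0362 ± 0.0130 CPM in HH and 1.74 ± 0.219 CPM in HL1002P (log2 fold change −5.49, edgeR adjusted p = 1.68e-05). For the other 82 genes called between HH and WT the 2 mutants did not differ at this threshold, which does not show that they are alike. The HL1002P mean lay on the HH side of the WT mean for 79 of the 85 and between the HH and WT means for 68. The 85 were chosen for differing from these same WT libraries, and the share over all genes was not computed. These counts therefore do not measure how alike the mutants are. HL1002P levels were scaled over all 11 muscle libraries, and HH and WT levels over the HH and WT libraries alone. Igfn1 averaged 232 ± 88.1 CPM in HH and 81.6 ± 43.4 CPM in HL1002P, a log2 fold change of 1.501 ± 0.43 (edgeR adjusted p = 0.838). Fabp3 averaged 274 ± 46.8 CPM in HH and 444 ± 45.53 CPM in HL1002P (log2 fold change −0.70 ± 0.17, edgeR adjusted p = 0.539), and Chrng 3.33 ± 0.970 CPM in HH and 6.59 ± 9.27 CPM in HL1002P, the HL1002P libraries spreading widely.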

How the data were processed

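RNA of whole gastrocnemius was sequenced. The authors deposited raw, unnormalised read counts for 24062 gene symbols, covering all 23 libraries of the series. The submitters' processing notes name TopHat2 2.0.14, Bowtie2 2.2.6, featureCounts 1.4.6 (Subread) and the mm10 build. Annotation, strand setting and the rule for multiply mapped reads are not given in the sources used here. Libraries came from an unstranded kit.

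The 3 HH and 4 WT muscle libraries were fitted in R 4.3.3 with edgeR 4.0.16: TMM scaling, filterByExpr by group, quasi-likelihood F tests, and Benjamini-Hochberg adjustment over 14235 genes with a threshold of 0.05. Levels are CPM on TMM-scaled library sizes, scaled over the HH and WT libraries for these groups and over all 11 muscle libraries for HL1002P. The labels give replicates as separate samples and no more, so p-values measure the spread between samples. HH was compared with HL1002P in a fit of all 11 muscle libraries. Alternatives used DESeq2 1.42.0, limma 3.58.1 (voom), other filters, scaling, covariates and subsets. Sex-linked transcripts were read from Xist, Ddx3y, Eif2s3y, Kdm5d and Uty. In counts simulated for this comparison over 14235 genes, edgeR called 60 of 100 genes given a log2 change of 1. It called 91 of 100 given a change of 2, beside 5 false calls, and DESeq2 made 27 false calls. The simulated counts varied independently between genes, without the split by sex-linked transcripts seen in the real libraries. These numbers need not hold for the real libraries.

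Named genes were Bub1b and Cdkn2a, with the 12 largest rises and 12 largest falls among called genes averaging 1 CPM or more without overlap. Predicted genes and clone names were passed over. Called genes within 20 Mb of Bub1b were added, and up to 4 called members or 2 others of smallest p per gene list. Lists of cell type markers followed the same rule. Others, such as Chrne, Chrnd, Myog, Pax7, Myh3, Hadha, Hadhb, Cpt2 and the further called genes, were chosen after their values were seen. So were the cell type markers Lyz2, Itgam, Cfd, Lep, Chad, Kera and Scx. All members and gene lists were chosen with earlier results of these data known, and lists are described by counts and medians without a set test. The denervation list leaves out 1 gene that is not reported here. Gene positions and promoter sequences came from RefSeq tables of GRCm38.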

Additional observations from a re-analysis of the deposited data

Results flagged for a closer look

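In 12 of 175 named genes 1 of the 4 WT libraries stood far from the other 3, with a gap to the nearest above Dixon's 95% critical share of the range; chance alone gives about 1 in 20. WT replicate 2 stood apart for 5 of them. It was low at 190.4 CPM for Glo1, and high at 2.86 CPM for Pax7, 1.35 CPM for Scube1, 17.5 CPM for Iffo1 and 0.0175 CPM for Gm14085 (RefSeq Slc28a2b), of which it held the only WT count. WT replicate 1 was high at 102.9 CPM for Rxrg, 20.5 CPM for Chrne and 0.0223 CPM for Bpifb1. WT replicate 3 was low at 236.5 CPM for Phlda3 and high at 0.0522 CPM for Th. WT replicate 4 was high at 71.0 CPM for Cdkn1a and 38.2 CPM for Gadd45gip1. For Gm14085, Bpifb1 and Th the other WT libraries were at 0, so any count met the rule. These genes cannot be set against the chance rate of 1 in 20, and the other flagged genes come close to that rate.

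For 2 genes the HH libraries lay on opposite sides of the WT mean in the 2 sex-linked classes, although single HH and WT libraries can overlap within a class. Alas2, the heme synthesis gene of red blood cells, differed (HH minus WT mean) by 1.16 CPM in the class with Y-linked transcripts and by −1.08 CPM in that with Xist. Lep, the hormone leptin, differed by −68.1 and 0.123 CPM in the same 2 classes; the second is close to 0, and the fitted log2 fold change there was −0.00048. Neither difference between classes was tested, and the class with Xist holds 1 HH library.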

How the results depend on the processing

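The count of 85 calls was 664 with DESeq2 (400 higher and 264 lower), 140 with no filter on low counts, 51 with a mean of at least 1 CPM required and 55 with all 11 muscle libraries in the fit (29 higher and 26 lower). It was 2 in the Y-linked class and 204 in the Xist class, where 1 HH library is assumed to vary like the WT libraries. RLE scaling (108), limma voom (59), sex class as a covariate (118) and thinning to the smallest total (85) stayed within 1.5 times of it. Of the 85, DESeq2 shared 85, voom 55 and the covariate fit 73. With 1 library left out the count ranged from 9 (without WT replicate 2) to 131 (without HH replicate 2). With the replicate number as a block 15 genes passed, 10 of them among the 85. Same-numbered libraries deviated from their group means with r of 0.144, −0.0044 and 0.305 across genes. HH replicates 1 and 3 correlated best with the WT library of their own number, and HH replicate 2 with WT replicate 1 (0.259). The labels name no pairs and these values cannot settle a pairing, so the numbers were not taken as pairs. The log2 fold change of Alas2, 0.14 in the main comparison, was −0.36 in the Xist class, −0.0029 without WT replicate 1 and −0.069 without HH replicate 2 (−0.069 to 0.40 over the fits with 1 library left out); the cause was not tested. All other named genes kept their sign under every alternative run (Lep at −0.00048 in the Xist class, in effect 0), although 766 of their values under these alternatives no longer passed the threshold. All 766 belong to the 85 genes called in the main comparison, so calls were often lost. Over all named genes, 2250 values kept their call or lack of one, and 109 passed only under an alternative. The medians of 18 of 39 gene lists changed sign under at least 1 alternative. These include immediate early genes (−0.39 to 0.58), interferon-stimulated genes (−0.036 to 0.87), collagen and matrix genes (−0.34 to 0.35), fatty acid uptake (−0.24 to 0.14), clock genes (−0.45 to 0.0026), slow fibre genes (−0.80 to 0.039) and sarcomere-associated genes (−0.086 to 0.25). The other 11 were CDK inhibitors, detoxification, cell division, spindle checkpoint, chaperones, integrated stress response, proteasome, and endothelial, smooth muscle, progenitor and lymphocyte markers. No lymphocyte marker reached a mean of 1 CPM, so that filter gave no median for them. Depth limits genes such as Bub1b, Pdzd3, Bpifb1 and Th, which rest on few counts.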
